A study of Mus musculus with 4 samples.

Results

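The genes described here are the enzymes and transporters that give a neuron a transmitter other than acetylcholine. They were named by symbol in a rule that uses no measured value, though earlier results of these data were known at the choice. All 9 were found among the 23420 gene symbols of each count file. They are *Slc17a6* and *Slc17a7* for glutamate, *Slc32a1*, *Gad1* and *Gad2* for GABA, *Slc6a5* for glycine, and *Th*, *Tph2* and *Slc18a2* for the monoamines. RNA-seq had been made in cervical motor neurons (MNs) differentiated in culture from E14 mouse embryonic stem cells, either wild type (WT) or *Patz1* -/- (*Patz1* KO), with 2 libraries of each genotype. In both genotypes the stem cells were grown with LIF and inhibitors of MEK and GSK3, formed embryoid bodies, and were then patterned with retinoic acid and smoothened agonist. PATZ1 is a zinc finger protein that binds DNA, the KO lines were made from the same E14 cells with a guide RNA against *Patz1*, and the clone behind each KO library is not named in the labels. The study describes its biological replicates as independent differentiations, and the titles of the libraries name stem cells while their source and cell type name MNs, as which they were taken. The labels name no sorting of MNs, and in bulk RNA of this kind more cells of a type and more RNA per cell cannot be told apart.

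A spinal MN releases acetylcholine, which is loaded into vesicles by *Slc18a3*, while the interneurons that form around it release glutamate, GABA or glycine. Glutamate is loaded by the vesicular glutamate transporters, of which *Slc17a6* prevails in the spinal cord. GABA is made from glutamate by the glutamate decarboxylases *Gad1* and *Gad2*, glycine is gathered by the plasma membrane transporter *Slc6a5*, and both inhibitory transmitters share the vesicular transporter *Slc32a1*. *Th* makes the precursor of dopamine and noradrenaline, *Tph2* that of neuronal serotonin, and *Slc18a2* loads every monoamine into vesicles.

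The 3 of the 9 genes that rose most, *Slc32a1*, *Gad1* and *Slc6a5*, are shown by the sequence just before their start, next to that of *Th*, which did not pass the test. The sequences are from RefSeq on GRCm38.p6, the assembly that mm10 names, read 5′ to 3′ on the strand of the gene. All 9 genes were matched in the promoter table, in 11 windows of 250 bases, and each stretch printed stops before the next annotated exon of its own gene. Those of *Gad1* and *Th* lie inside the annotated span of the gene, since other transcripts start further upstream. Capitals mark a TATA box letter string in *Gad1*, which reads TATAAA on the other strand, and a cyclic AMP response element, TGACGTCA, in *Th*. The positions are chr2:158610508-158610757 (plus strand) for *Slc32a1*, chr2:70561879-70562041 (plus strand) for *Gad1*, chr7:49910049-49910145 (plus strand) for the first of 2 windows of *Slc6a5*, and chr7:142900015-142900245 (minus strand) for *Th*.
*Slc32a1*: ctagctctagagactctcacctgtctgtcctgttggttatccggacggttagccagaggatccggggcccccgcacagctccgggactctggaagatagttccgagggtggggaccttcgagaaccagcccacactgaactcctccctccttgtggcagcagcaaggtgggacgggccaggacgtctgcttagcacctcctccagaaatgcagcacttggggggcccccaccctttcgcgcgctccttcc
*Gad1*: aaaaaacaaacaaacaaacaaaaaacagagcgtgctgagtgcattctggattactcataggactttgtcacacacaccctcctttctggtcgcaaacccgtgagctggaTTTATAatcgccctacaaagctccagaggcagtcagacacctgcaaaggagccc
*Slc6a5*: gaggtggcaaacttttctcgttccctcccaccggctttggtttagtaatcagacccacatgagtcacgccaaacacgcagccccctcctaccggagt
*Th*: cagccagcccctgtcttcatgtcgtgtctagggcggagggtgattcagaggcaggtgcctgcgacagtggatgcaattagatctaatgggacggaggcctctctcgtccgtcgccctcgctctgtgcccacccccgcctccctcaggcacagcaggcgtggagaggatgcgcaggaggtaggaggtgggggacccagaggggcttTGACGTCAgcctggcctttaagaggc

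Motifs were searched as exact letters on both strands of the full windows, and none of the motifs overlapped another. The letters ACGTG, the core shared by hypoxia response elements and some E-boxes, were in 4 of the 11 windows (both of *Slc6a5*, *Slc17a7* and *Tph2*) and in 16.6% of all 32851 promoters. The G-rich string GGGGAGGGG, of the kind that zinc finger proteins of this family recognise, was in the windows of *Slc18a2* and *Tph2* and in 5.75% of all promoters. TATAAA was in those of *Gad1* and *Tph2* and in 12.4% of all, and TGACGTCA, searched after the sequences had been seen, was in that of *Th* and in 1.55% of all. The full windows of *Slc32a1* and *Gad1* had a GC content of 62.4% and 58.0%, against a median of 52.4% over all promoters. The 2 windows of *Slc6a5* had 50.4% and 43.6%. Of the *Slc32a1* window, 196 bases lie in an exon of the non-coding gene *Gm14204*, which runs the other way and starts 43 bases from the start of *Slc32a1*.

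Libraries summed to 14769104 and 15728158 counts for WT, against 23881522 and 17402342 for *Patz1* KO. *Patz1*, the targeted gene, had 1363 and 1499 counts in WT against 1154 and 714 in *Patz1* KO, and fell by 1.04 on the log2 scale (SE 0.095, adjusted p = 1.1e-07, quasi-likelihood test of edgeR, Benjamini-Hochberg adjustment over 14269 genes). Levels are given as CPM (counts scaled to library size) on edgeR's TMM library sizes, and a gene was called at an adjusted p below 0.05 in that test. Of the genes tested, 47.9% were called, 24.1% higher and 23.8% lower in *Patz1* KO, and 74.2% had libraries that did not overlap between the genotypes. A call is therefore common in these data. Motor neuron markers were present in both genotypes and 6 of 7 were called higher in *Patz1* KO, with a summed level of 576 and 537 CPM in WT and 860 and 785 CPM in *Patz1* KO.

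*Slc32a1*, *Slc6a5* and *Gad1*, which make a neuron GABAergic or glycinergic, were between 4.86-fold and 9.80-fold higher in *Patz1* KO MNs. The second decarboxylase, *Gad2*, both glutamate transporters and *Th* did not pass the test. *Slc18a2* was 1.22-fold higher, a call that several other settings did not give. Of the 9 genes, 8 passed the filter on low counts, 4 of them were called higher and 0 lower, beside the 24.1% and 23.8% of all genes. Of the 4, *Slc32a1*, *Gad1* and *Slc6a5* passed it through the *Patz1* KO libraries alone. Of the 276 genes let in that way, 49.3% were called higher. The mean level was higher in *Patz1* KO for 8 of the 9, and 6 of the 8 tested had groups that did not overlap, beside 74.2% of all genes.

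**Figure D1:**
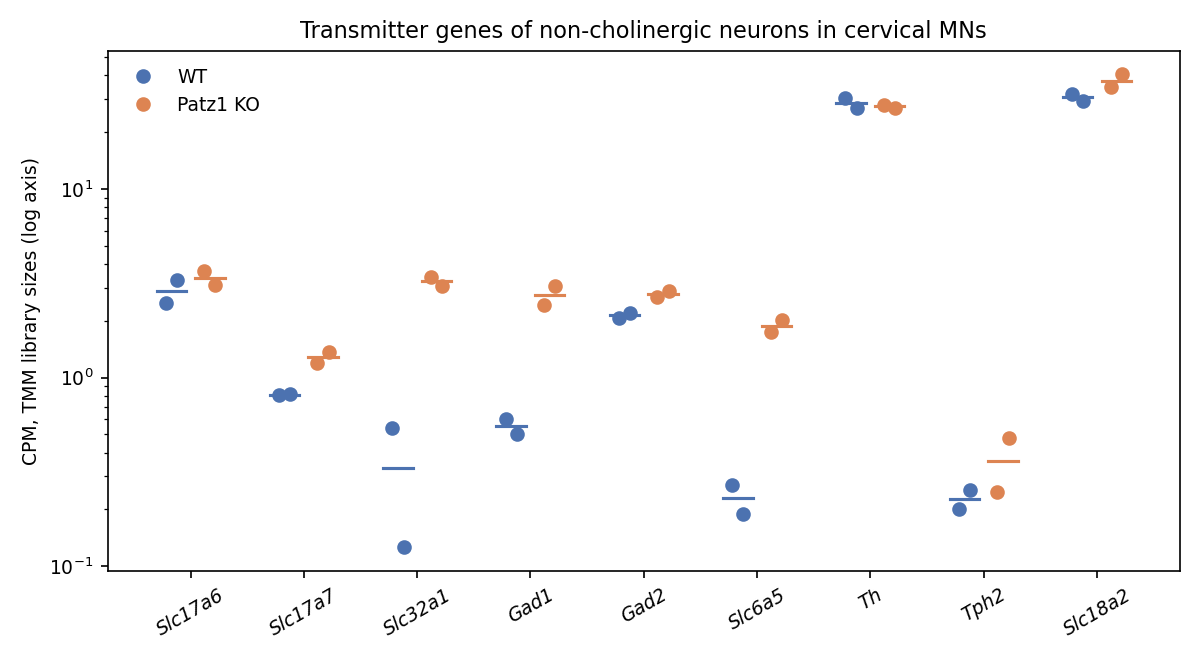
CPM of the 9 genes on a log axis, with 1 point per library (WT in blue, *Patz1* KO in orange) and a bar at the mean of each genotype. *Slc32a1*, *Gad1* and *Slc6a5* stand apart between the genotypes, with means of 0.331 against 3.23, 0.554 against 2.74 and 0.229 against 1.88 CPM, while *Slc17a6* and *Th* overlap.

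*Slc32a1* (chr2:158610767-158615748, plus strand, mm10) is the vesicular transporter shared by GABA and glycine. It had 8 and 2 counts in WT against 83 and 51 in *Patz1* KO. Both *Patz1* KO libraries lay far above both WT libraries, and the WT libraries differed 4-fold in counts between themselves. The mean level was 0.331 ± 0.291 CPM in WT and 3.23 ± 0.271 CPM in *Patz1* KO (SD, n = 2 each), which gave a log2 fold change of 3.29 (SE 0.451, adjusted p = 1.14e-05, edgeR's quasi-likelihood test). This was the rise of rank 16 among the 14269 genes tested. The ratio of the summed counts, scaled to library size, was 9.90 (exact 95% interval from 5.22 to 21.1, for counting error only). The size of the rise rested on the WT libraries, since the log2 fold change was 4.62 without WT replicate 1 and 2.59 without WT replicate 2.

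*Slc6a5* (chr7:49910146-49963856, plus strand) is the glycine transporter that marks glycinergic neurons. It had 4 and 3 counts in WT against 42 and 34 in *Patz1* KO, so that both WT libraries were close to the detection limit, taken as 3 counts. The mean level was 0.229 ± 0.056 CPM in WT and 1.88 ± 0.208 CPM in *Patz1* KO (SD, n = 2 each), and the log2 fold change was 3.00 (SE 0.496, adjusted p = 8.32e-05, edgeR's quasi-likelihood test). The ratio of summed counts was 8.02, with a wide interval for counting error, from 3.71 to 20.6. The rise was of rank 26 among the genes tested.

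*Gad1* (chr2:70553072-70602014, plus strand) is the decarboxylase that makes most of the GABA of a neuron. It had 9 and 8 counts in WT against 59 and 51 in *Patz1* KO, with no overlap between the genotypes. The mean level went from 0.554 ± 0.071 CPM to 2.74 ± 0.429 CPM (SD, n = 2 each), which gave a log2 fold change of 2.28 (SE 0.386, adjusted p = 0.000103, edgeR's quasi-likelihood test). The ratio of summed counts was 4.78 (exact 95% interval from 2.853 to 8.501), and the rise was of rank 88.

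These 3 genes passed the filter on low counts through the *Patz1* KO libraries alone, since fewer than 2 WT libraries reached the minimum of 0.604 CPM. Entry that way favours genes that were higher in *Patz1* KO, though it does not force a difference. Of the 276 genes of that kind, 136, or 49.3%, were called higher. The ranks of these 3 genes among the rises follow in part from that entry and are no separate support. Their calls held under each of the other settings in which they could be tested, with an adjusted p of 0.0129 at most. Their log2 fold changes with any single library left out were 2.59 to 4.62 for *Slc32a1*, 2.77 to 3.26 for *Slc6a5* and 2.13 to 2.45 for *Gad1*. Exons of *Slc32a1* overlap those of *Gm14205* on the other strand, and the strand setting of the counting is not given in the sources used here.

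*Gad2* (chr2:22622205-22693874, plus strand), the decarboxylase bound to synaptic vesicles, had 31 and 35 counts in WT against 65 and 48 in *Patz1* KO. Both *Patz1* KO libraries were the higher once scaled, at 2.68 and 2.86 CPM against 2.08 and 2.20 CPM, but the gap was small beside its error. The log2 fold change was 0.37 (SE 0.282, adjusted p = 0.30, edgeR's quasi-likelihood test), and the interval of the ratio of summed counts, from 0.926 to 1.74, includes no change. *Gad1* and *Gad2* thus stood at different ratios in the 2 genotypes. Per kb of exon, *Gad1* was at 0.223 and 0.176 of the level of *Gad2* in WT, and at 0.698 and 0.817 of it in *Patz1* KO.

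*Slc17a6* (chr7:51622006-51671119, plus strand), the glutamate transporter of most spinal excitatory neurons, had 37 and 52 counts in WT against 89 and 52 in *Patz1* KO. In CPM the genotypes overlapped, at 2.48 and 3.27 against 3.67 and 3.10, and the log2 fold change was 0.24 (SE 0.266, adjusted p = 0.478, edgeR's quasi-likelihood test). The interval of the ratio of summed counts went from 0.891 to 1.54. *Slc17a7* (chr7:45163949-45176142, plus strand), the glutamate transporter of cortical neurons, was lower still, with 12 and 13 counts in WT against 29 and 23 in *Patz1* KO. Its groups did not overlap, at 0.806 and 0.818 against 1.20 and 1.37 CPM. The log2 fold change of 0.65 had an SE of 0.401 and did not pass the test (adjusted p = 0.197, edgeR's quasi-likelihood test). The counting interval of its ratio of summed counts ran from 0.936 to 2.58.

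Vesicular transporters for inhibition and excitation changed places in order only once scaled to exon length (2797 bases for *Slc32a1*, 5399 for *Slc17a6*). In CPM, *Slc32a1* stayed below *Slc17a6* in both *Patz1* KO libraries, at 3.42 and 3.04 against 3.67 and 3.10. Per kb of exon, *Slc32a1* was at 0.417 and 0.0742 of the level of *Slc17a6* in WT, and at 1.80 and 1.89 of it in *Patz1* KO. *Slc6a5* kept no clear ratio to *Slc32a1*, at 0.194 and 0.583 in WT and 0.197 and 0.259 in *Patz1* KO. Beside the cholinergic transporter *Slc18a3*, *Slc32a1* stayed minor, at 0.00299 and 0.000791 of its level in WT and 0.0119 and 0.0112 in *Patz1* KO. These ratios were not tested, since an exact two-sided permutation test of 2 libraries against 2 cannot give a p below 0.333. In WT they rest on 8 and 2 counts of *Slc32a1* and on 4 and 3 counts of *Slc6a5*. The detection limit was taken as 3 counts, so the WT ratios are rough.

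**Figure D2:**
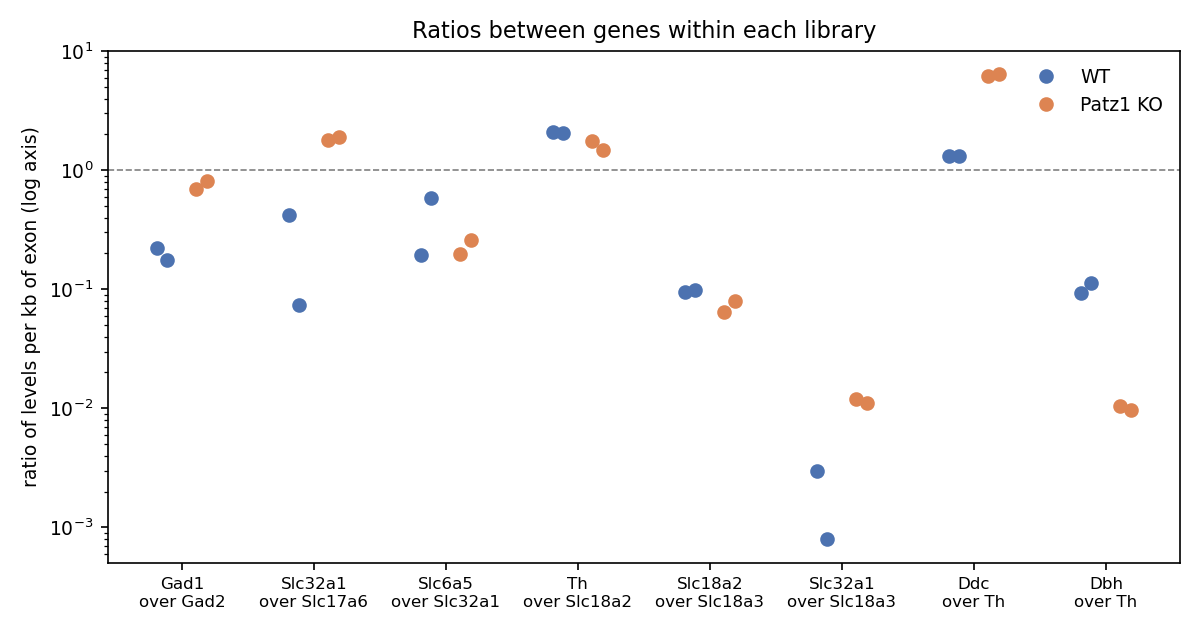
Ratios of the level per kb of exon of 1 gene to another within each library, on a log axis, with a dashed line where both levels are equal (WT in blue, *Patz1* KO in orange). *Slc32a1* lies below *Slc17a6* in both WT libraries and above it in both *Patz1* KO libraries, and *Ddc* over *Th* goes from 1.33 and 1.32 to 6.16 and 6.43.

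*Th* (chr7:142892752-142931128, minus strand), the rate-limiting enzyme of catecholamine synthesis, had 452 and 430 counts in WT against 675 and 453 in *Patz1* KO. At 30.4 and 27.0 CPM in WT and 27.9 and 27.0 CPM in *Patz1* KO, the genotypes overlapped. The log2 fold change was -0.06 (SE 0.111, adjusted p = 0.662, edgeR's quasi-likelihood test), its sign turned to 0.0217 without WT replicate 1, and the interval of the ratio of summed counts went from 0.864 to 1.03. *Slc18a2* (chr19:59260896-59296012, plus strand), the vesicular monoamine transporter of neurons, had 476 and 466 counts in WT against 840 and 680 in *Patz1* KO, or 32.0 and 29.3 against 34.7 and 40.5 CPM. Both *Patz1* KO libraries were the higher, and the log2 fold change of 0.29 (SE 0.110) was called with an adjusted p of 0.0367 in edgeR's quasi-likelihood test. The call was lost with DESeq2's Wald test (adjusted p = 0.12), with library size as the only scaling (0.0723), and without WT replicate 1 (0.0746), WT replicate 2 (0.276) or *Patz1* KO replicate 2 (0.126). *Slc18a2* shares exonic bases with *Gm29261* on the other strand.

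*Tph2* (chr10:115078641-115185022, minus strand), the enzyme of neuronal serotonin synthesis, had 3 and 4 counts in WT against 6 and 8 in *Patz1* KO and did not pass the filter. Fitted without the filter, its log2 fold change was 0.62 (adjusted p = 0.633, edgeR's quasi-likelihood test). No difference could be detected at so low a depth, with an interval from 0.558 to 4.33 for the ratio of summed counts.

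Set beside each other per kb of exon, the monoamine genes *Th* and *Slc18a2* had the highest levels of the 9 in both genotypes. In WT, *Th* stood at 12.1 and *Slc18a2* at 5.86 CPM per kb, followed by *Slc17a6* at 0.533 and *Gad2* at 0.364 CPM per kb. *Slc17a7*, *Slc32a1*, *Tph2* and *Gad1* came next, at 0.151 to 0.0725 CPM per kb, and no neighbours among them differed beyond the spread of their libraries, while *Slc6a5* was last at 0.0317 CPM per kb. In *Patz1* KO, *Slc32a1* moved to the third place at 1.16 CPM per kb, behind *Th* at 11.6 and *Slc18a2* at 7.20 CPM per kb. *Slc17a6* at 0.627, *Gad2* at 0.472, *Gad1* at 0.358, *Slc6a5* at 0.261, *Slc17a7* at 0.238 and *Tph2* at 0.126 CPM per kb followed. Of these neighbours only *Slc6a5* and *Slc17a7* overlapped in their libraries.

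Most of the further genes listed for GABA were called higher too, though the decarboxylase *Gad2* was not. Of 6 genes for GABA uptake and breakdown 5 were tested, 4 were called higher and 0 lower, and their median log2 fold change was 0.98, beside -0.0014 over all genes tested. *Slc6a11*, a GABA transporter found mostly on glia, went from 57 and 55 counts to 537 and 273, and its log2 fold change was 2.41 (SE 0.191). *Abat*, the transaminase that breaks GABA down, rose by 0.68 (SE 0.104) on the log2 scale. For both genes the adjusted p was 3.64e-05 or less in edgeR's quasi-likelihood test.

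The glycine genes did not rise with *Slc6a5*. Of 7 genes for glycine uptake, synthesis and cleavage, all tested, 0 were called higher and 3 lower, with a median log2 fold change of -0.29. *Shmt1*, a cytosolic enzyme that makes glycine from serine, fell by 1.53 on the log2 scale (SE 0.14), its mitochondrial counterpart *Shmt2* fell by 0.64 (SE 0.0922), and *Gldc*, of the glycine cleavage system, fell by 0.43 (SE 0.0983). Their adjusted p was 0.00159 or less in edgeR's quasi-likelihood test. Without *Patz1* KO replicate 2, 5 glycine genes were called. *Slc6a9*, the second plasma membrane glycine transporter, had a log2 fold change of 0.11 (SE 0.168) and was not called.

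Genes of glutamate supply and uptake moved both ways. Of 14 genes tested, 5 were called higher and 5 lower, and the median log2 fold change was 0.07. Of these 10 calls the count fell to 4 without WT replicate 1, and to 6 without WT replicate 2 or with DESeq2's Wald test. *Slc1a3*, the glutamate uptake transporter of radial glia and astrocytes, went from 688 and 821 counts to 2808 and 1961 and rose by 1.25 (SE 0.0937, adjusted p = 9.36e-09, edgeR's quasi-likelihood test). *Slc38a1*, which brings in glutamine, fell by 0.78 (SE 0.0906), and *Slc1a4*, a transporter of neutral amino acids, fell by 0.49 (SE 0.101), both on the log2 scale. The third vesicular glutamate transporter, *Slc17a8*, which is outside the 9 genes and was added here after its values were seen, had 15 and 22 counts in WT against 62 and 43 in *Patz1* KO, which gave a log2 fold change of 1.09 (SE 0.328, adjusted p = 0.0109, edgeR's quasi-likelihood test).

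Around *Th*, which did not pass the test, the next steps of catecholamine synthesis moved in opposite directions. *Ddc*, which turns the product of *Th* into dopamine and that of *Tph2* into serotonin, had 1131 and 1068 counts in WT against 7851 and 5498 in *Patz1* KO. It was 4.56-fold higher (log2 fold change 2.19, SE 0.0941, adjusted p = 1.05e-11, edgeR's quasi-likelihood test). *Dbh*, which turns dopamine into noradrenaline, had 48 and 55 counts in WT against 8 and 5 in *Patz1* KO, and was 10.4-fold lower (log2 fold change -3.37, SE 0.394, adjusted p = 1.86e-06, same test). Of the 7 tested genes among 9 further catecholamine enzymes and transporters, 1 was called higher and 3 lower (*Dbh*, *Maoa* and the noradrenaline transporter *Slc6a2*), with a median of -0.32. *Maoa*, which breaks monoamines down, fell by 0.32 on the log2 scale (SE 0.0966, adjusted p = 0.0117, edgeR's quasi-likelihood test). *Slc6a2* had 10 and 20 counts in WT against 6 and 9 in *Patz1* KO, and like *Dbh* it passed the filter through the WT libraries alone. The count of 4 called genes fell to 2 with at least 10 counts in every library, with DESeq2's Wald test, without WT replicate 1 or without WT replicate 2.

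Per kb of exon, *Ddc* stood at 1.33 and 1.32 of the level of *Th* in WT and at 6.16 and 6.43 of it in *Patz1* KO. *Dbh* stood at 0.0933 and 0.112 of the level of *Th* in WT and at 0.0104 and 0.00969 in *Patz1* KO. The ratio of *Th* to *Slc18a2* moved less, from 2.099 and 2.039 to 1.78 and 1.47. The tetrahydrobiopterin cofactor that *Th* and *Tph2* need is made by *Gch1*, *Pts* and *Spr*, and all 3 were called higher. Of the 8 cofactor genes tested, 3 were called higher and 1 lower, with a median of -0.04. *Gch1*, the entry step, had 21 and 25 counts in WT against 105 and 57 in *Patz1* KO, which gave a log2 fold change of 1.38 (SE 0.293, adjusted p = 0.000809, edgeR's quasi-likelihood test). *Spr*, the last step, rose by 0.87 on the log2 scale (SE 0.108). None of the 4 further serotonin and histamine genes (*Tph1*, *Slc6a4*, *Hdc* and *Hnmt*) had enough counts for a test, with at most 8 counts in any library.

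**Figure D3:**
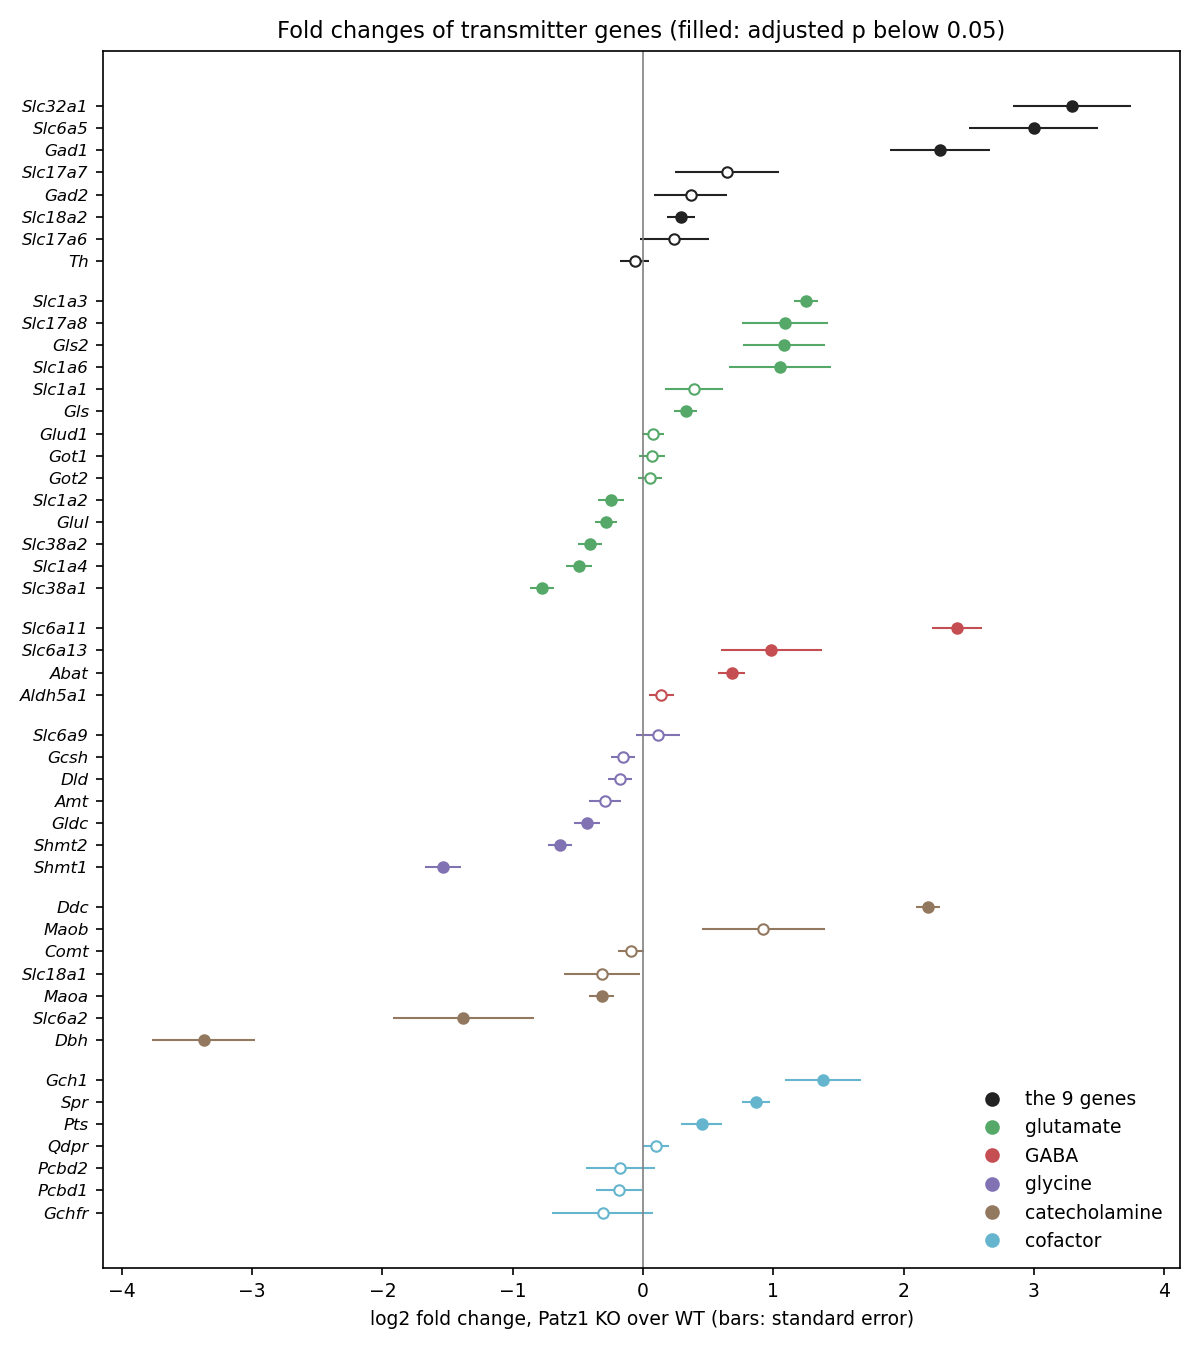
Log2 fold changes of *Patz1* KO over WT with their standard errors (bars), for the 8 tested genes of the 9 and tested genes of the 5 pathway lists, filled where the adjusted p was below 0.05. GABA genes lie to the right, glycine genes mostly to the left, and *Ddc* (2.19) and *Dbh* (-3.37) lie at opposite ends of the catecholamine genes.

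Transcription factors that set transmitter choice in the spinal cord were read in the same fit. Of 15 factors of inhibitory neurons 8 were tested, 4 were called higher and 0 lower, and their summed level was 18.1 and 20.2 CPM in WT and 33.8 and 35.2 CPM in *Patz1* KO. *Lhx5*, a LIM factor of dorsal and ventral inhibitory interneurons, had 6 and 13 counts in WT against 106 and 114 in *Patz1* KO (log2 fold change 3.14, SE 0.373, adjusted p = 2.22e-06, edgeR's quasi-likelihood test). *Tal1*, which directs ventral interneurons to the inhibitory fate, had 17 and 26 counts in WT against 211 and 130 in *Patz1* KO (log2 fold change 2.56, SE 0.256, adjusted p = 3.04e-07, same test). *Pax8*, a paired box factor of inhibitory interneurons, had 1 and 2 counts in WT, at or under the detection limit, and 24 and 20 in *Patz1* KO, and *En1*, the fourth gene called, had 10 and 9 counts in WT against 43 and 36 in *Patz1* KO. *Gata2* and *Gata3*, which act beside *Tal1*, had log2 fold changes of 0.28 (SE 0.312) and -0.29 (SE 0.286) and were not called. *Lhx5*, *Pax8* and *En1*, like *Evx1* among the excitatory factors, passed the filter through the *Patz1* KO libraries alone, and with at least 10 counts in every library 1 inhibitory factor was called. *Ptf1a*, the selector of dorsal GABAergic neurons, was at 0 counts in every library.

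Factors of excitatory neurons gave a mixed picture: of 13, 5 were tested, 2 were called higher and 1 lower. *Evx1* had 0 and 4 counts in WT against 29 and 11 in *Patz1* KO, and *Sim1*, of a ventral excitatory class, fell by 0.58 on the log2 scale (SE 0.149).

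Of 9 factors of monoaminergic neurons 6 were tested, 0 were called higher and 3 lower. *Foxa2*, a floor plate factor that also acts in dopaminergic neurons and in endoderm, had 418 and 451 counts in WT against 125 and 100 in *Patz1* KO and fell by 2.35 on the log2 scale (SE 0.142). *Foxa1* fell by 2.87 (SE 0.225), and for both the adjusted p was 1.68e-08 or less in edgeR's quasi-likelihood test. *Hand2*, a factor of sympathetic neurons and the third gene called, had 57 and 50 counts in WT against 11 and 21 in *Patz1* KO, and it passed the filter through the WT libraries alone. *Fev*, of serotonergic neurons, and *Pitx3*, of midbrain dopaminergic neurons, were at 0 in every library.

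Markers of the cell types that the cultures could hold moved between the genotypes too, and their part in the results above was not tested. Motor neuron markers had a median log2 fold change of 0.73 (*Chat* 0.99, *Mnx1* 0.88, *Slc18a3* 0.73), with 6 of 7 called higher and *Isl1* not called. Pan-neuronal markers were called higher for 5 of 9 and lower for 1, with a median of 0.41 (*Dcx* 1.01, *Rbfox3* 0.89, *Syt1* 0.55) and a summed level of 4337 and 4091 CPM in WT and 6265 and 5949 CPM in *Patz1* KO. The log2 fold changes of *Slc32a1*, *Slc6a5* and *Gad1* were above those of all these markers, that of *Slc17a7* was above the pan-neuronal median, and those of *Gad2*, *Slc17a6*, *Slc18a2* and *Th* were below it, differences that were not tested. Without WT replicate 2, 3 pan-neuronal markers were called.

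Of 7 neural progenitor markers, 2 were called higher and 3 lower, with a median of -0.20 (*Sox1* 1.03, *Pax6* -1.05, *Hes5* -0.99) and a summed level of 862 and 835 CPM in WT and 623 and 603 CPM in *Patz1* KO. Of 8 glial markers 5 were tested and 3 called higher, with a median of 0.91 (*Aldh1l1* 2.69, *Sox10* 0.91). Their summed level was 60.2 and 64.9 CPM in WT against 101 and 80.7 CPM in *Patz1* KO, beside the rises of the glial transporters *Slc6a11* and *Slc1a3*. *Mbp*, at 46.6 and 50.6 CPM of the WT sums, and *Mog* were not called (log2 fold changes 0.01 and -0.71). *Sox10* was called with an adjusted p of 0.0489 in edgeR's quasi-likelihood test. With library size alone or DESeq2's Wald test, 2 glial markers were called. Beside the falls of *Foxa1* and *Foxa2*, 6 of 8 endoderm markers were called lower (*Gata4* -3.49, *Dab2* -3.34, *Cubn* -2.92), with a summed level of 43.1 and 51.5 CPM in WT and 7.47 and 7.45 CPM in *Patz1* KO. *Gata4*, *Gata6*, *Sox17* and *Ttr* among them passed the filter through the WT libraries alone, and with at least 10 counts in every library 2 endoderm markers were called. Of 6 pluripotency markers 4 were tested and 2, *Klf4* and *Dppa5a*, were called lower, with a median of -1.21 and a summed level of 9.33 and 12.1 CPM in WT and 5.94 and 7.75 CPM in *Patz1* KO (*Nanog* -0.70 and *Zfp42* 0.46 were not called). *Dppa5a* passed the filter through the WT libraries alone, and 1 pluripotency marker was called with DESeq2's Wald test, without WT replicate 1 or without WT replicate 2.

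Genes that respond to low oxygen had the highest median of the lists read here. Of 10, 9 were tested and 9 were called higher, with a median log2 fold change of 2.37 (*Pdk1* 2.78, *Bnip3* 2.68, *Ldha* 2.59) and a summed level of 282.5 and 289.8 CPM in WT and 1004 and 1300 CPM in *Patz1* KO. *Slc32a1*, *Slc6a5* and *Gad1* were higher in *Patz1* KO as this group was, and as the summed motor neuron and pan-neuronal markers were. The part of the oxygen-response group in their rises was not tested.

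**Figure D4:**
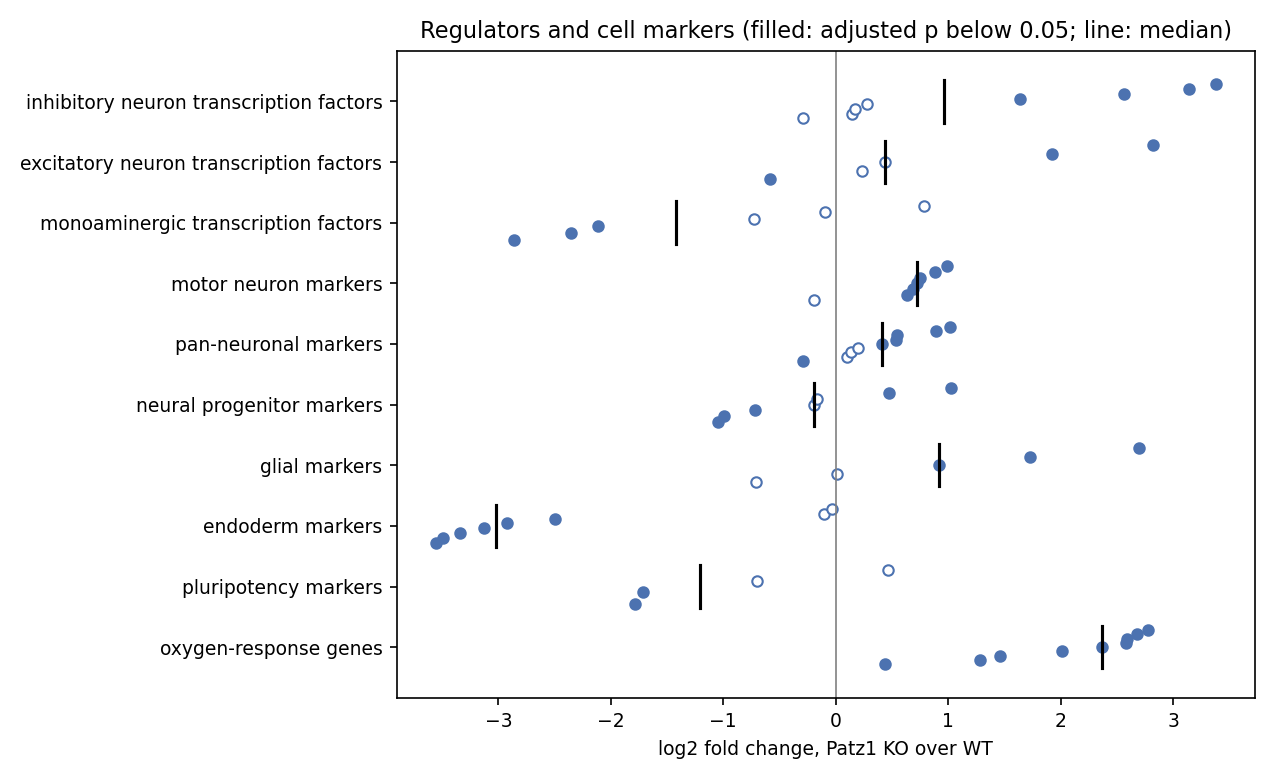
Log2 fold changes of the tested genes in each list of transcription factors and markers, with 1 point per gene, filled where the adjusted p was below 0.05, and a bar at the list's median. The medians were 0.73 for motor neuron markers and 2.37 for oxygen-response genes.

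The neighbours of the 9 genes were read in the same fit. Of the 18 nearest genes, 1 on each side, 11 were tested, 3 were called higher and 3 lower, beside the 47.9% called among all genes. *Gm14204*, whose exon lies in the *Slc32a1* promoter window printed above, rose with *Slc32a1*, from 13 and 15 counts among WT libraries to 55 and 48 among *Patz1* KO libraries (log2 fold change 1.47, SE 0.35, adjusted p = 0.00209, edgeR's quasi-likelihood test). On the other side of *Slc32a1*, *Actr5* rose by 0.61 (SE 0.13), and *Nell1*, next to *Slc6a5*, rose by 0.64 (SE 0.154). Of the neighbours of *Gad1*, *Gorasp2* had a log2 fold change of -0.01 (SE 0.09) and was not called. *Erich2* had 7 counts or fewer in every library and was not tested. Beside *Slc18a2*, *Pdzd8* fell by 0.49 (SE 0.0863), and *Ano5*, beside *Slc17a6*, which passed the filter through the WT libraries alone, and *Tbc1d15*, beside *Tph2*, were the others called lower.

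The genes whose levels followed that of *Slc32a1* most closely over the 4 libraries, by the distance between centred log2(CPM + 0.5) values, were *Mt3* (0.176), *Sybu* (0.284) and *Thnsl2* (0.31). *Mt3* had 50 and 35 counts in WT against 375 and 248 in *Patz1* KO. The log2 fold changes of the 3 genes were 2.45, 2.35 and 2.25, below the 3.29 of *Slc32a1*. The 0.5 added to each level damps the fold of *Slc32a1*, which had 8 and 2 counts in WT. With 2 libraries of each genotype, such closeness reflects mostly a step of similar size between the genotypes.

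**Figure D5:**
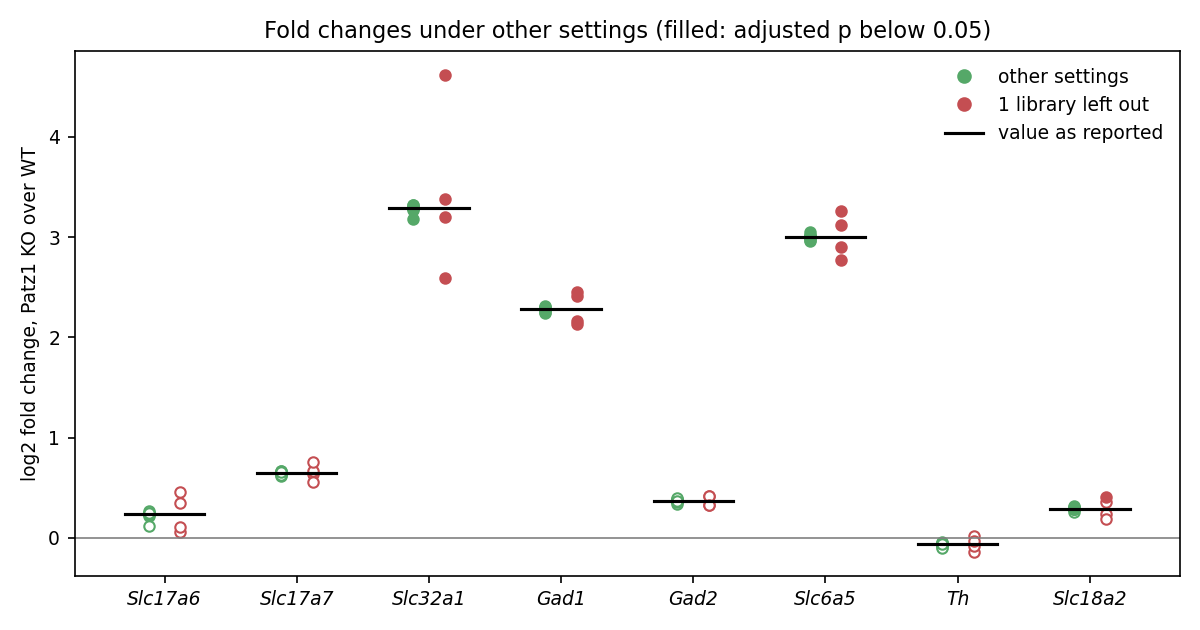
Log2 fold changes of the 8 tested genes as reported (black bars), under the other settings (green) and with 1 library left out (red), filled where the adjusted p was below 0.05. *Slc32a1*, *Gad1* and *Slc6a5* stayed above 2 and called in every fit shown, *Slc32a1* spread from 2.59 to 4.62, and *Slc18a2* lost its call under several settings.

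Several genes named above share exonic bases with a gene on the other strand, which counting without regard to strand would add. Among them are *Shmt1* with *Smcr8*, *Shmt2* with *Ndufa4l2*, *Lhx5* with *Gm27199*, *Pax8* with *Gm13415*, *Evx1* with *Evx1os* and *Hand2* with *Hand2os1*. The same holds for *Aldh1l1*, *Bnip3*, *Cubn*, *Dab2*, *Gata3*, *Gata6*, *Hes5*, *Slc6a9* and *Sox17*. *Patz1* shares exonic bases with *Gm12592* on the other strand and with *Gm11944*.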

How the data were processed

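RNA-seq counts of 4 libraries of cervical MNs were analysed, 2 WT and 2 *Patz1* KO, grouped by the genotype in the labels. The authors deposited raw counts of reads per gene symbol, without normalization, from rRNA-depleted stranded libraries of total RNA; the submitters' processing notes name mm10, TopHat2 2.1.1, Bowtie2 2.3.1, featureCounts 1.6.2 and DESeq2, and the paper's methods name Bowtie 2, while the annotation and strand setting are not given in the sources used here. Every row names a gene. Replicates differed by more than sampling noise (chi-square per gene 9.87 between the WT and 22.0 between the *Patz1* KO libraries).

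Genes were filtered with edgeR's filterByExpr (minimum count 10, leaving 14269), normalized by TMM and tested with the quasi-likelihood F test (edgeR 4.0.16, limma 3.58.1, R 4.3.3), genotype being the only term, with Benjamini-Hochberg adjustment and a threshold of 0.05. DESeq2, which the study used, was run as an alternative (1.42.0). The SE is the absolute log2 fold change over the square root of F. Intervals of ratios of summed counts are exact binomial (Clopper-Pearson, 95%) and cover counting error only. The common biological coefficient of variation was 7.71%. Positions and exon lengths came from GENCODE M21 on GRCm38, promoters from RefSeq, and tables and plots were made in Python 3.11.15 (numpy 2.4.6, pandas 2.3.3, scipy 1.17.1, matplotlib 3.10.9). The tests were run on simulated counts in which all genes shared the common dispersion and few changed. These data differ in both, so that run does not check the calls given here.

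The rule for the 9 genes uses symbols only, but the genes and lists were chosen with earlier results of these data known. The text names *Patz1*, the 9 genes, the 3 genes of smallest p in each of 16 lists (all genes where 4 or fewer were tested), the nearest gene on either side, and the 3 genes most like the one with the largest change. *Slc17a8*, *En1*, *Lhx1*, *Pax2*, *Gata2*, *Gata3*, *Ptf1a*, *Fev*, *Pitx3*, *Slc6a9*, *Slc6a2*, *Pts*, *Isl1*, *Mbp*, *Mog*, *Gata6*, *Sox17*, *Ttr* and the untested serotonin and histamine genes were added after their values were seen. A few genes of the lists are counted in them but not reported here by themselves. Alternatives were DESeq2's size factors and its Wald test, scaling by library size, TMM leaving aside the 20 genes with most counts, no filter, at least 10 counts in every library, edgeR's robust option, a log2 fold change of at least 1 in size, thinning to the smallest library, the replicate number as a block and leaving out each library.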

Additional observations from a re-analysis of the deposited data

How the results depend on the processing

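*Slc32a1*, *Gad1* and *Slc6a5* were called higher under each setting in which they could be tested. With at least 10 counts in every library they could not be, and 1 of the 9 genes was called. Testing against a log2 fold change of 1 in size left 718 of the 6836 genes called; with DESeq2's Wald test 5118 were called. Without 1 library, where the lone library of a genotype was assumed to vary like the other genotype, 4521 to 7816 genes were called (4521 without WT replicate 2), and 3 to 4 of the 9 genes. *Slc18a2* lost its call at a log2 fold change of 0.26 with library size alone, 0.30 with DESeq2's Wald test and 0.29 with the minimum fold. Its log2 fold change went from 0.19 to 0.41 without 1 library. That of *Th* went from -0.14 to 0.0217 and turned positive without WT replicate 1. The causes were not tested. Over the 16 further lists, 200 of 224 counts stayed within 1.5 times the reported one; 24 did not, of which the glutamate supply and pluripotency lists gave 4 each and the other catecholamine list 5. Same-numbered libraries shared little (correlation of deviations 0.04 across genes, which are not replicates); with the replicate number as a block 7361 genes and 4 of the 9 were called. Depth limits *Tph2* and the WT levels of *Slc32a1* and *Slc6a5*.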
